A study of Equus asinus with 3 samples.

Results

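The barcodes described here come from the testis of the donkey (Equus asinus) and hold an intermediate share of spermatid transcripts. Their label names early round spermatids and transition cells. A round spermatid is the haploid cell that builds the sperm head and tail. These barcodes were chosen by 2 sums over the transcripts of each barcode, in percent of its unique molecular identifiers (UMIs, tags that mark single captured RNA molecules). The first sum, S, adds 5 spermatid genes: HMGB4, a chromatin protein of the HMG-box family, AKAP4 and AKAP3, anchoring proteins of the sperm tail's fibrous sheath, AK1, an adenylate kinase, and ACTL7A, an actin-like protein of the sperm head. The second sum, P, adds TNP1, TNP2 and PRM2, the transition proteins and the protamine that replace histones in late spermatids. A barcode was a member with S of at least 0.03% and under 0.15% and with P under 0.15%. The rule took 2684 of 8610 testis barcodes (31.2%, exact Clopper-Pearson 95% interval 30.2% to 32.2%) and 14054450 of 47686179 UMIs, with a median of 4576 UMIs and 2283 genes a barcode.

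The series measured single-cell RNA in 3 libraries, from testis and from the caput and corpus of the epididymis, with tissue of 3 sexually mature males. The labels do not tie animals to libraries, and the testis was treated as 1 sample without a replicate. The labels name germ cells as the testis cell type and describe no sort, treatment or genotype. All values are therefore descriptions of 1 library, no p-value was computed, and the intervals, exact at 95%, cover counting error only. Applied to the other libraries, the rule took 753 of 9478 caput and 16 of 9611 corpus barcodes. Of the caput ones, 698 met it by 1 UMI of the S genes at a median depth of 1145 UMIs in that library, and all 16 in the corpus did, at a median of 371.

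In the male germ line a spermatocyte becomes haploid through a pair of divisions that need cyclin-dependent and spindle kinases. During meiosis the X chromosome is transcriptionally silenced, and some X-linked genes are transcribed again in the haploid cell. The round spermatid then makes transcripts for the acrosome, the enzyme-filled cap of the sperm head, and for the flagellum, many of which are stored for later translation.

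The members were set between 2 neighbours of the same library. The lower-S group held barcodes with S under 0.03% and P under 0.15% (2522 barcodes, median 4988 UMIs), and the higher-S group those with S of at least 0.15% and P under 0.15% (2186 barcodes, median 4942 UMIs). Both neighbours left out barcodes marked as somatic, meaning at least 0.3% of UMIs in marker genes of stromal, myoid, endothelial, macrophage and T or NK cells. Levels are counts per 1000000 UMIs (CPM) of the summed barcodes. A gene was called higher or lower if both ends of the interval around its ratio passed 2-fold and if at least 50 UMIs stood behind the higher value. The 8 genes of the rule were left out of all counts.

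S rested on few molecules. In 445 members (16.6%) it was 1 UMI, in 1020 (38.0%) at most 2 and in 1510 (56.3%) at most 3. HMGB4 gave 48.9% of the members' S UMIs, AK1 27.5%, AKAP4 12.4%, AKAP3 7.84% and ACTL7A 3.35%. When each barcode was thinned at random to 1800 UMIs, 65.6% of the members still met the rule, 20.3% fell under the lower bound and 13.8% rose above the upper one, while 13.9% of the lower-S group entered it. The members are thus a range of a score and not a closed cell type.

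**Figure D1:**
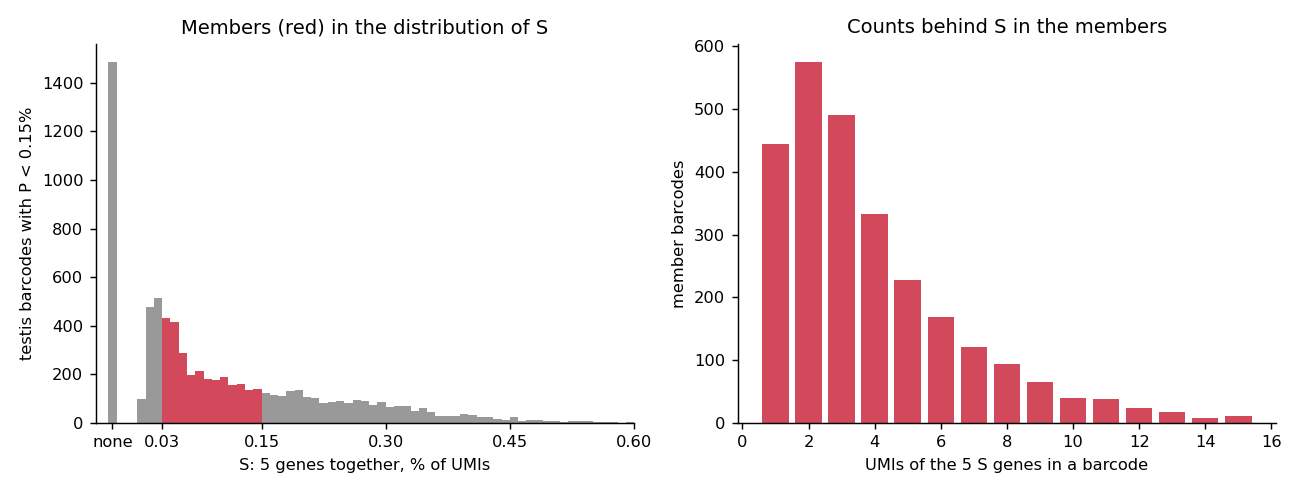
Left, testis barcodes with P under 0.15% by S in steps of 0.01% of UMIs (the bar at "none" holds barcodes without a UMI of the 5 genes, and 4 barcodes above 0.60% are not drawn), with the members in red. Right, members by their number of S UMIs, with 31 members above 15 UMIs not drawn. The members' range starts on the shoulder of the low barcodes and has no gap at either bound, and most members have 1 to 3 UMIs.

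The values on the 2 sides of each bound were as follows. Of the barcodes with P under 0.15%, 516 had S between 0.02% and 0.03% and 433 between 0.03% and 0.04%, and HMGB4, set by the rule, stood at 106 and 150 CPM in these strips. NUTM1, a partner of histone acetyltransferases in spermatids, stood at 14.0 CPM just outside and 27.0 CPM just inside, and UPF3B, an X-linked factor of nonsense-mediated RNA decay, at 98.8 and 139 CPM. CKS2, a subunit of cyclin-dependent kinases needed in meiosis, stood at 520 CPM just outside and 407 CPM just inside. At the upper bound the strips held 139 barcodes inside and 121 outside. HMGB4 was at 784 and 899 CPM there, NUTM1 at 61.5 and 81.7 CPM, UPF3B at 474 and 505 CPM and CKS2 at 50.3 and 50.5 CPM.

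Of the 4 genes given as markers, HMGB4 is part of the rule and stood at 44.9 CPM in the lower-S group, 379 in the members and 1649 in the higher-S group, as the rule sets it. NUTM1 had 10.9, 53.7 and 88.1 CPM in the same order. Its ratio of members to the lower-S group was 4.91 (4.15 to 5.85), and that of the higher-S group to the members 1.64 (1.49 to 1.80). UPF3B had 66.9, 285 and 489 CPM, with ratios of 4.26 (3.98 to 4.57) and 1.71 (1.65 to 1.78). Both were called higher than in the lower-S group and passed the 2-fold rule on neither side of the higher-S group. PLK1, the polo-like kinase of the divisions, did not set the members apart, with 726, 746 and 606 CPM and a ratio of the lower-S group to the members of 0.972 (0.946 to 0.999).

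Thinned to 1800 UMIs, a UMI of NUTM1 was found in 2.30% of lower-S, 8.64% of member and 14.1% of higher-S barcodes (5.71%, 22.5% and 35.8% without thinning). For UPF3B the thinned shares were 12.0%, 35.8% and 55.0%. In the 122 barcodes marked as somatic, with a median of 2245 UMIs, the thinned shares were 4.92% for NUTM1 and 21.3% for UPF3B. These shares lie between those of the lower-S group and of the members. Whether the NUTM1 and UPF3B UMIs there came from germ cells was not tested. Germ-cell RNA was present in the somatic-marked barcodes by the level of CETN1, a germ-cell centrin: 654 CPM there against 1928 in the members. Per UMI of CETN1, NUTM1 stood at 0.0498 in the somatic-marked barcodes and 0.0279 in the members, and UPF3B at 0.2805 and 0.1479.

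Somatic-marked barcodes also met the rule. Of the 122, 49 (40.2%) were members, 1.83% of all members. The summed S of all 122, members or not, was 0.0778% against 0.0775% in the members. HMGB4 stood at 426 CPM over the same 122 barcodes. Counts below are given with and without the 49 barcodes where they differ. Their germ-cell RNA, and how much free RNA the members hold, was not tested further. Doublet scores in the top 5% of the library were found in 6.97% of members, 2.82% of the lower-S group and 5.72% of the higher-S group, and their part in the results below was not tested beyond leaving those barcodes out.

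Against the lower-S group, 1853 of 13294 tested genes were called higher in the members (13.9%), 878 of them with a gene symbol, and 159 lower (1.2%), 121 with a symbol. Without the somatic-marked members the counts were 1790 and 162, of which 1784 and 156 were the same genes. Against the higher-S group, 420 of 14022 tested genes were called higher in the members (3.0%) and 2130 lower (15.2%), or 364 and 2138 without the somatic-marked members. The median log2 ratio over all tested genes was 0.06 against the lower-S group and 0.07 against the higher-S group. Since the members were chosen by S, genes that accompany S had to differ in both comparisons, which also share the members. Of the 1853 genes, 1065 (57.5%) stood above the somatic-marked level in the members and 788 did not. The share was 56.6% for the 159 genes called lower than in the lower-S group. It was 52.6% and 47.3% for those called higher and lower than in the higher-S group. It was not counted over all tested genes, so 57.5% does not set the 1853 genes apart.

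No gene was called lower in the members than in both neighbours. Called higher than in both were 31 genes, 28 of them with a symbol, among them DCN and COL1A2, matrix genes of fibroblasts, and APOE, the apolipoprotein. These genes were at 3410, 722 and 3987 CPM in the somatic-marked barcodes. Without the 49 somatic-marked members, only 1 locus without a symbol remained in that list. In between lay far more genes: 992 genes were called higher than in the lower-S and lower than in the higher-S group, and 71 the other way.

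Some transcripts of the meiotic divisions, CDK1 and CKS2 among them, were lower in the members than in the lower-S group, and most of the list was not called. Of 28 tested kinases, cyclins and checkpoint genes, 6 were called lower than in the lower-S group (1.2% of all tested genes were), 0 higher and 22 neither, with a median log2 ratio of -0.43. CDK1, the kinase that drives entry into division, fell from 78.3 CPM in the lower-S group to 20.1 in the members and 4.94 in the higher-S group, a ratio of the lower-S group to the members of 3.90 (3.42 to 4.46). CKS2 went from 638 to 195 and 35.4 CPM, 3.27-fold (3.13 to 3.41) lower in the members than in the lower-S group. The others were PTTG1, the securin that holds back sister separation (268, 112 and 31.3 CPM), ESPL1, the separase it holds back (55.3, 18.1 and 5.35 CPM), and BUB1B and MAD2L1 of the spindle checkpoint.

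CCNB1, cyclin B1, missed the call by its interval: it had 298, 143 and 38.3 CPM, 2.08-fold (1.97 to 2.19) lower in the members than in the lower-S group. Against the higher-S group 8 of 28 genes of the list were called higher in the members (background 3.0%), among them CCNB1 (3.74-fold, 3.38 to 4.14) and the Aurora kinase AURKA (671 against 289 CPM), and 1 lower, with a list median of 0.46. The lower one was WEE2, a germ-cell kinase that inhibits CDK1, named here after its value was seen. NEK2, a centrosome kinase, had 1264, 1201 and 891 CPM and was not called in either comparison, as was PLK1.

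Few spindle, kinetochore and cytokinesis genes were called against the lower-S group. Of 30 tested, 2 were lower (1.2% of all tested genes), 1 higher and 27 neither. The lower ones were SGO2, the shugoshin that guards centromere cohesion (278 against 116 CPM), and TPX2, a spindle assembly factor (175 against 79.8 CPM), and the list's median log2 ratio was -0.52. Against the higher-S group 9 were called higher in the members (3.0% of all tested genes) and the median was 0.94, for example BIRC5, the survivin of the chromosomal passenger complex (246 against 86.8 CPM), and PRC1 of the central spindle (346 against 139 CPM).

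NDC80, a kinetochore protein, had 52.2 CPM in the lower-S group, 118 in the members and 470 in the higher-S group. It was the single member of the list called higher than in the lower-S group, 2.26-fold (2.07 to 2.46), and the single one called lower than in the higher-S group.

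Split by S into 4 equal steps of 0.03%, the members held 1137, 594, 520 and 433 barcodes. CKS2 had 322, 146, 102 and 55.3 CPM over these steps, and CCNB1 218, 117, 89.0 and 58.3 CPM. POU5F2, a POU-domain transcription factor of meiotic germ cells, had 29.8, 10.5, 9.27 and 4.29 CPM, after 76.2 in the lower-S group. Most of the drop in POU5F2 and CKS2 fell between the lower-S group and the second step.

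From the lower-S group over the 4 steps to the higher-S group, 11 of 29 division genes and 15 of 30 spindle genes fell at every step and 0 and 1 rose at every step. Of all 14475 genes tested in either comparison, 8.0% fell and 14.1% rose at every step. Members of the S range differed in somatic-marked barcodes too, with 33 in the first step and 3, 8 and 5 in the others.

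**Figure D2:**
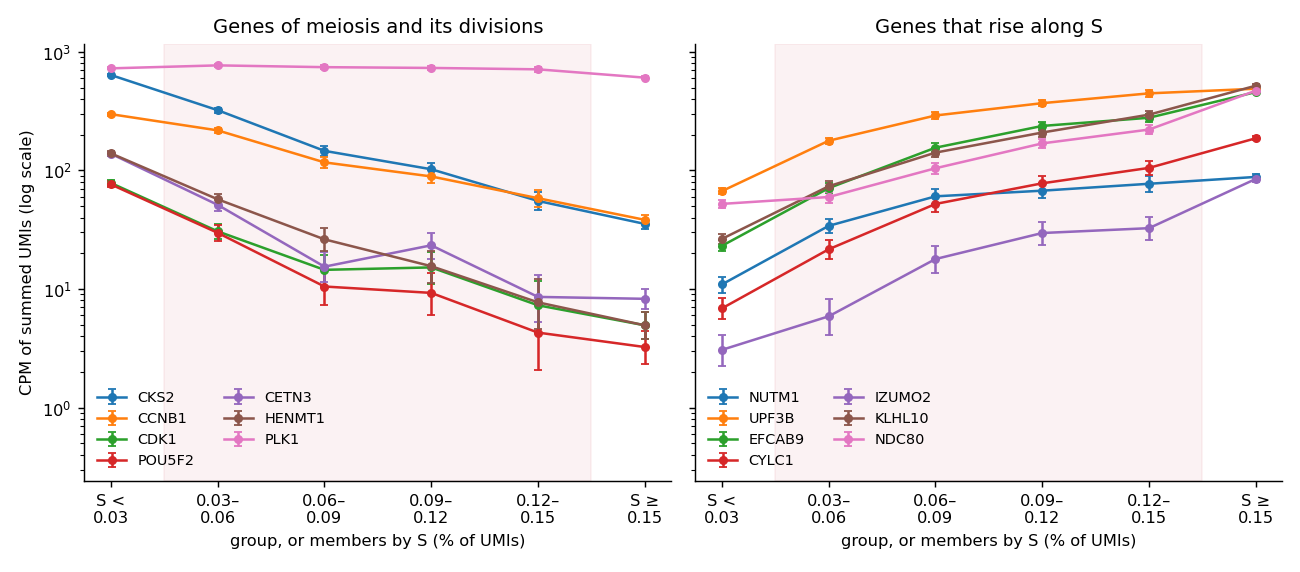
Levels of 14 genes (CPM of summed UMIs, log scale, bars are exact 95% intervals of counting error) in the lower-S group, in the members by S (shaded) and in the higher-S group. CKS2 falls from 638 to 35.4 CPM and PLK1 stays between 606 and 769 CPM, while UPF3B climbs from 66.9 to 489 CPM and NDC80 from 52.2 to 470 CPM.

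Of 26 tested genes of the synaptonemal complex, which zips homologous chromosomes together, and of recombination, 4 were called higher than in the lower-S group (13.9% of all tested genes), 1 lower (1.2% of all) and 21 neither, with a median log2 ratio of -0.09. SYCP3, an axial element protein of early meiosis, was among the higher ones: 11.3 CPM in the lower-S group, 49.7 in the members and 120 in the higher-S group, 4.42-fold (3.73 to 5.25) over the lower-S group. REC8, the meiotic cohesin, followed with 3.93, 12.7 and 58.0 CPM. MEI4, of the machinery that breaks DNA, had 9.20, 35.5 and 65.2 CPM, and DMC1, the meiotic recombinase, 1.07, 4.06 and 4.45 CPM.

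The gene called lower was PSMC3IP, the HOP2 partner of DMC1, with 125, 44.8 and 10.1 CPM. SYCE2, a central element protein, was close to level at 1821, 1819 and 1599 CPM. SYCP1 of the transverse filament had 438, 405 and 318 CPM. SYCP3 and REC8 climbed toward the higher-S group while SYCP1 and SYCE2 did not. The share of the list called higher than in the lower-S group was near that of all tested genes.

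Of 18 tested genes of the piRNA pathway, which silences transposons in germ cells, 3 were called lower than in the lower-S group (1.2% of all tested genes were) and 0 higher, with a median log2 ratio of -0.36. HENMT1, the enzyme that methylates the ends of piRNAs, fell 4.12-fold (3.73 to 4.56), from 139 to 33.8 CPM, and stood at 4.94 CPM in the higher-S group. The tudor-domain genes TDRKH (80.0, 33.1 and 13.7 CPM) and TDRD5 (21.3, 8.47 and 10.5 CPM) were the others. TDRD6 and TDRD7, of the same family, were not called, at 848, 772 and 695 CPM and at 1043, 1100 and 967 CPM.

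The list of 236 X-linked genes, of which 231 were measured and 230 are placed on X by RefSeq, took 0.171% of UMIs (0.169% to 0.173%) in the lower-S group, 0.330% (0.327% to 0.333%) in the members and 0.438% (0.434% to 0.442%) in the higher-S group. Over the 4 steps of S it took 0.281%, 0.336%, 0.371% and 0.398%. The median over single barcodes was 0.172%, 0.317% and 0.430% in the 3 groups. In the somatic-marked barcodes the share was 1.24%, so they raised the members' share: without them it was 0.321%.

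Of 97 tested X-linked genes, 31 were called higher in the members than in the lower-S group (background 13.9%) and 0 lower, with a median log2 ratio of 0.84. Without the somatic-marked members 27 were called. The ratio was above 1 in 90 of the 97, with its whole interval above 1 in 77. The same was not counted over all tested genes, whose median log2 ratio was 0.06. Against the higher-S group 3 were called higher (background 3.0%) and 9 lower (background 15.2%), with a median of -0.10, so neither count exceeded its background by much.

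Besides UPF3B, the genes of the X-linked list with the most UMIs in the members differed less than 2-fold between the members and either neighbour. MAP7D3, a microtubule-associated protein, had 203, 336 and 387 CPM. RPGR, a GTPase regulator of cilia, had 140, 237 and 246 CPM, and MORF4L2, of a histone acetyltransferase complex, 78.0, 139 and 158 CPM. UBE2A, a ubiquitin-conjugating enzyme, was called higher with 18.9, 47.9 and 77.7 CPM.

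CYLC1, cylicin of the sperm head's calyx, had 6.87, 53.3 and 187 CPM, 7.76-fold (6.31 to 9.63) over the lower-S group. AKAP14, an anchoring protein, had 8.06, 39.8 and 73.5 CPM. CXHXorf66, outside the list and placed on X by RefSeq, had 5.20, 38.6 and 131 CPM. In the somatic-marked barcodes CYLC1 stood at 41.4 CPM, below the members.

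Autosomal copies of X-linked housekeeping genes, which stand in for them while the X is silent, held no call against the lower-S group in 7 tested genes, 2 of which fell and 1 of which rose at every step. The list took 0.474%, 0.431% and 0.386% of UMIs in the lower-S group, the members and the higher-S group. PGK2, a phosphoglycerate kinase, had 729, 666 and 610 CPM, and CETN1 2180, 1928 and 1469 CPM. PDHA2, of pyruvate dehydrogenase, had 533, 502 and 617 CPM. UBL4B had 4.87, 11.0 and 53.7 CPM and was called lower than in the higher-S group.

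**Figure D3:**
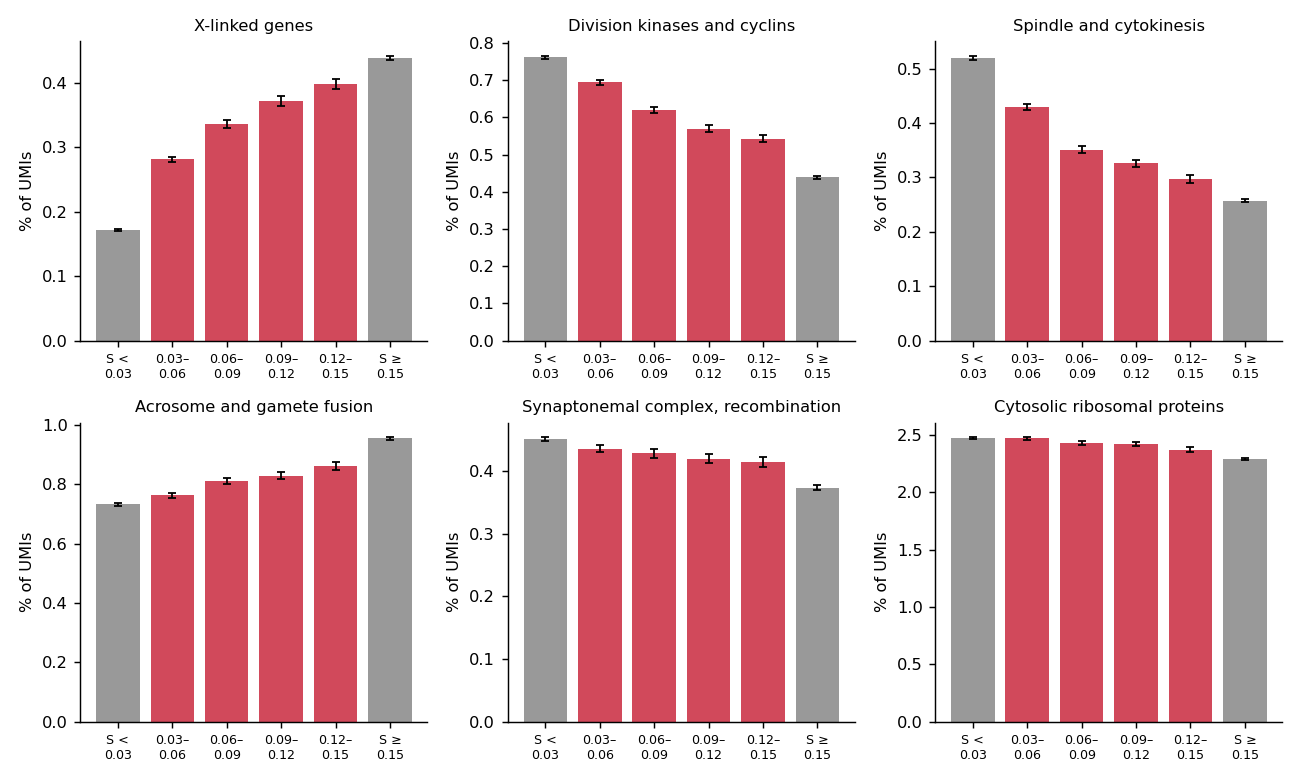
Share of UMIs (percent, bars from 0, error bars are exact 95% intervals of counting error) of 6 gene lists in the lower-S group, the members in 4 steps of S (red) and the higher-S group. X-linked genes climb from 0.171% to 0.438% and division genes fall from 0.762% to 0.439%, while ribosomal protein genes go from 2.47% to 2.29%.

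As a share of UMIs the division list fell from 0.762% in the lower-S group over 0.695%, 0.621%, 0.570% and 0.542% in the steps to 0.439%, with 0.628% over all members. The spindle list went from 0.520% to 0.370% in the members and 0.257% in the higher-S group. The acrosome list took 0.732%, 0.802% and 0.954%. The 71 cytosolic ribosomal protein genes held no call in either comparison and took 2.47%, 2.43% and 2.29%. In the somatic-marked barcodes they took 7.89%.

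Many genes of the acrosome and of gamete fusion stood between their levels in the neighbours. Of 26 tested, 14 were called higher than in the lower-S group (background 13.9%), 0 lower and 12 neither, with a median log2 ratio of 1.69. Against the higher-S group 14 of 28 were called lower (background 15.2%) and 0 higher, with a median of -1.11. LYZL4, a lysozyme-like protein of sperm, had 10.1, 64.5 and 322 CPM. IZUMO2, of the family of the sperm-egg fusion protein IZUMO1, had 3.07, 17.7 and 84.7 CPM, and TMEM81, of the fertilization complex, 1.33, 5.62 and 45.3 CPM.

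The acrosome genes with the most UMIs were already present in the lower-S group. ACRBP, which binds proacrosin, had 1140, 982 and 861 CPM, SPESP1, a protein of the equatorial segment, 1159, 1267 and 1083 CPM, and IZUMO4 1546, 1361 and 1055 CPM. DPY19L2, which anchors the acrosome to the nucleus, had 918, 952 and 808 CPM. None of these passed the 2-fold rule. The share of the list therefore differed less between groups than its median gene.

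Of 12 tested round spermatid markers, 7 were called higher than in the lower-S group (13.9% of all tested genes) and 7 lower than in the higher-S group (15.2%). TSSK1B, a testis serine kinase, had 18.8, 95.2 and 257 CPM, 5.07-fold (4.45 to 5.78) over the lower-S group. SUN5, which joins head and tail, had 3.00, 9.25 and 63.2 CPM. CAPZA3, a capping protein of sperm actin, was at 6.0, 12.1 and 80.7 CPM and was called only against the higher-S group. Of 13 late spermatocyte markers 3 were called lower than in the lower-S group (1.2% of all tested genes), PTTG1, POU5F2 and TDRD5, while CCNA1, the cyclin of male meiosis, had 642, 676 and 567 CPM. The members hold markers of both late spermatocytes and round spermatids, and so do both neighbours. Round spermatid markers took 0.201%, 0.274% and 0.424% of UMIs in the lower-S group, the members and the higher-S group. Late spermatocyte markers took 1.07%, 0.986% and 0.792% in the same order.

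Of 19 tested genes of the fibrous sheath and outer dense fibres, 6 were called higher than in the lower-S group (13.9% of all tested genes) and 0 lower, with a median log2 ratio of 0.58. ROPN1, a docking protein of the fibrous sheath, had 151, 386 and 641 CPM and ODF1, of the outer dense fibres, 37.2, 147 and 467 CPM. ODF2, of the same fibres, was level at 1582, 1615 and 1570 CPM, as was CABYR, a calcium-binding sheath protein, at 2284, 2461 and 2681 CPM. ODF3 was late: 1.33, 4.41 and 57.1 CPM, 12.9-fold (9.97 to 17.1) higher in the higher-S group than in the members.

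Of 16 tested genes of the sperm calcium channel CatSper and of calcineurin, 4 were called higher than in the lower-S group (13.9% of all tested genes), with a median log2 ratio of -0.05. EFCAB9, the calcium sensor of CatSper, had 23.1, 157 and 458 CPM, 6.78-fold (6.05 to 7.61) over the lower-S group, and 101 CPM in the somatic-marked barcodes. The pore subunits CATSPER1 (4.20, 19.9 and 50.7 CPM), CATSPER3 (8.26, 33.7 and 122 CPM) and CATSPER4 (2.40, 16.4 and 38.4 CPM) followed. CATSPERB and CATSPERZ, accessory subunits, went from 418 to 323 and 228 CPM and from 1219 to 1162 and 1038 CPM. SLC9C1, the sperm sodium-proton exchanger, was the list's single gene called higher than in the higher-S group (254 against 115 CPM).

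The axoneme, the microtubule core of the tail, had few calls: 3 of 45 tested genes were higher than in the lower-S group, against 13.9% of all, 0 lower and 42 neither, with a median log2 ratio of 0.24. The 3 were DNAH9, a dynein heavy chain (11.0, 28.0 and 18.8 CPM), and the tektins TEKT4 (15.7, 49.5 and 79.4 CPM) and TEKT5 (4.67, 17.6 and 33.1 CPM). DNAI2, a dynein intermediate chain, was the single gene called higher than in the higher-S group (297 against 132 CPM).

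Among 16 tested genes of histone acetylation and spermatid chromatin, NUTM1, PRM3 and H1-7 were called higher than in the lower-S group and HMGB2 lower, against 13.9% and 1.2% of all tested genes and so near the background on the higher side. H1-7, a linker histone of spermatids, had 11.3, 53.3 and 259 CPM, and PRM3, a protamine-like gene, 22.3, 78.8 and 375 CPM. HMGB2, a chromatin protein of dividing and meiotic cells, had 168, 53.5 and 10.6 CPM. BRDT, the bromodomain reader of the testis, was level at 877, 894 and 961 CPM.

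Of 16 tested spermatid transcription factors and partners, 2 were called higher than in the lower-S group, a share near the 13.9% of all tested genes. They were KIF17, a kinesin that carries a cofactor of CREM (8.06, 30.2 and 82.8 CPM), and SOX5 (24.6, 59.6 and 226 CPM). CREM itself, the activator of many spermatid genes, had 592, 636 and 776 CPM. RFX1 had 272, 292 and 244 CPM, and TBPL1, a relative of the TATA-binding protein, 886, 796 and 546 CPM. CREM, RFX1 and TBPL1 passed the rule in neither comparison.

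Of 13 tested genes of germ-line glycolysis, 3 were called higher than in the lower-S group (13.9% of all tested genes), 1 lower (1.2%) and 9 neither. SLC2A3, a glucose transporter, was the lower one, at 743, 254 and 76.6 CPM (2.93-fold, 2.82 to 3.04, over the members in the lower-S group). Called higher were HK1, hexokinase (15.4, 61.1 and 140 CPM), TPI1, triosephosphate isomerase (14.5, 45.5 and 121 CPM), and GAPDHS, the sperm glyceraldehyde dehydrogenase (14.9, 40.3 and 182 CPM). PGAM2, a phosphoglycerate mutase, was not called, at 532, 490 and 463 CPM, nor were PGK2 and PDHA2, whose values are given above.

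Of 20 tested ubiquitin genes of germ cells 5 were called higher than in the lower-S group (13.9% of all tested genes) and 0 lower, with a median log2 ratio of 0.31. KLHL10, an adaptor of the cullin-3 ligase needed in spermatids, had 26.5, 152 and 518 CPM, and 160 in the somatic-marked barcodes, above the members. USP44, a deubiquitinase, had 69.7, 217 and 419 CPM, and UBE2N, a conjugating enzyme, 49.5, 132 and 322 CPM. CUL3 itself was level at 751, 794 and 723 CPM.

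By the interval farthest from 1, the genes highest over the lower-S group were led by PRSS35, a serine protease-like gene (0.933 against 11.5 CPM, 12.4-fold, 7.15 to 23.1). CXXC5, a zinc-finger gene (4.60 against 36.7 CPM), AREG, the growth factor amphiregulin (4.33 against 34.6 CPM), ODF3L1 (4.87 against 36.7 CPM), ALB, the albumin gene (4.27 against 32.2 CPM), TSBP1 (8.40 against 58.6 CPM) and DBX2, a homeobox gene (6.47 against 45.8 CPM), followed. In the somatic-marked barcodes PRSS35 stood at 47.4, CXXC5 at 104 and AREG at 35.5 CPM, at or above the members. The part of RNA from other barcodes in these 3 genes was not tested.

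Lowest against the lower-S group were CETN3, a centrin (138, 30.5 and 8.26 CPM, 4.53-fold, 4.08 to 5.04), POU5F2, HENMT1, CDK1 and CKS2 given above, PCDH8, a protocadherin (11.1, 2.06 and 0.729 CPM), PHF2, a histone demethylase (35.6, 9.11 and 3.89 CPM), C2H15orf48 (86.8, 24.0 and 7.37 CPM), PCBP1, an RNA-binding protein (157, 46.6 and 18.1 CPM), and BRD1, a bromodomain protein (75, 22.7 and 9.07 CPM). The 3 centrins went separate ways: CETN3 fell and CETN1 was not called against the lower-S group. CETN2, X-linked but outside the list of X-linked genes, had 123, 247 and 329 CPM.

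Against the higher-S group, the genes most above it in the members were HENMT1 (6.84-fold, 5.23 to 9.09), RCN2, a calcium-binding protein of the endoplasmic reticulum (35.3 against 5.67 CPM), FLCN, folliculin (23.4 against 3.56 CPM), EIF2B2, a translation initiation factor (74.3 against 13.3 CPM), PEBP1, an inhibitor of RAF kinase (584 against 118 CPM), SLC2A8, a glucose transporter (96.8 against 18.5 CPM), and CKS2. CST3 and ID1 were in the same list, at 45.6 against 8.26 CPM and 3.91 against 0.324 CPM, and so was DCN. In the somatic-marked barcodes CST3, ID1 and DCN stood at 1166, 65.1 and 3410 CPM. ID1 rested on 4 UMIs in the higher-S group and, without the somatic-marked members, was under the minimum of UMIs.

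The genes farthest below the higher-S group were ODF3, TMEM191C (0.783 against 10.4 CPM), ACOT4, an acyl-CoA thioesterase (1.57 against 17.3 CPM), SAXO1, a microtubule stabilizer of the axoneme (11.4 against 92.5 CPM), PRSS55, a sperm serine protease (8.68 against 72.2 CPM), MS4A6A (7.19 against 59.6 CPM), TMEM81, PLCZ1, the phospholipase by which sperm activate the egg (19.0 against 137 CPM), TSGA13 (11.0 against 81.2 CPM) and FABP12, a fatty acid-binding protein (10.5 against 77.7 CPM). PLCZ1 and SAXO1 were also called higher than in the lower-S group, at 5.53 and 4.0 CPM there.

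Clustered on thinned counts, the members fell into 6 clusters, called by number since their genes define them. Cluster 0 (1060 barcodes) was led by TSBP1, IQCA1L, C16H1orf141, TEX50 and TXNDC8, cluster 1 (882) by FLCN, PEBP1 and ARPC5L with ratios under 2, and cluster 2 (462) by POU5F2, CETN3, HENMT1, CDK1 and HMGB2. In the first step of S cluster 2 held 34.6% of barcodes and cluster 0 14.7%, and in the last step 0.693% and 76.2%. In cluster 2, 69.3% of barcodes had at most 2 S UMIs, against 21.1% in cluster 0 and 35.5% in cluster 1.

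**Figure D4:**
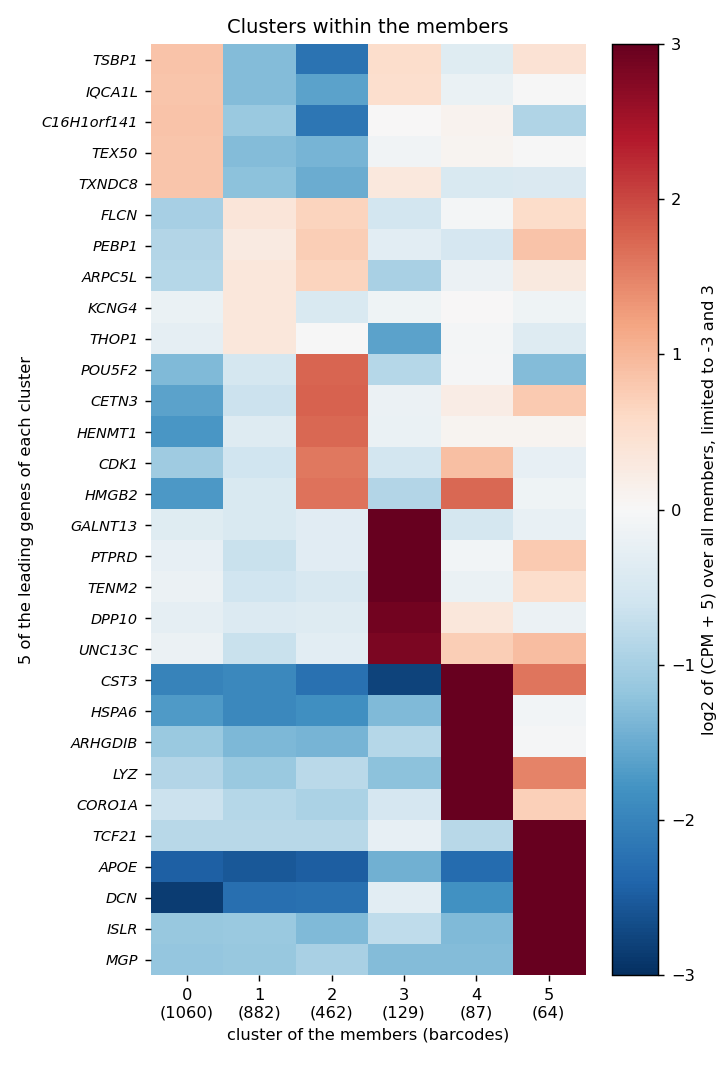
Clusters of the members (columns, with their barcodes) by 5 of the leading genes of each (rows), coloured by log2 of the cluster's CPM over that of all members with 5 CPM added, limited to 3 in either direction. Clusters 0, 1 and 2 share 1 gradient of germ-cell genes, and clusters 3, 4 and 5 stand apart by long, immune and stromal genes.

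The values of the clusters repeat the order along S. These values are descriptions, since the clusters were formed from counts of the same barcodes. The clustering used 2000 variable genes, and the genes of the rule were left out of it. UPF3B stood at 60.2 CPM in cluster 2, 235 in cluster 1 and 424 in cluster 0, and NUTM1 at 12.7, 43.5 and 78.9 CPM. The X-linked list took 0.183%, 0.289% and 0.386% of UMIs and the division list 0.776%, 0.674% and 0.552%. In the lower-S group UPF3B was at 66.9 CPM and the 2 lists at 0.171% and 0.762%, so cluster 2 lay close to that group in these values. HMGB4, a gene of the rule, stood at 205 CPM in cluster 2 against 44.9 in the lower-S group.

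Clusters 3, 4 and 5 were small. Cluster 3 (129 barcodes, median 2475 UMIs) was led by very long genes such as GALNT13 and PTPRD, and its share of UMIs in a list of such genes was 0.371%, against 0.0720% over all members. Cluster 4 (87 barcodes) was led by CST3, HSPA6, ARHGDIB, LYZ and CORO1A, genes of white blood cells and heat shock, with T or NK markers at 0.0687% of UMIs against 0.00294% over all members. Cluster 5 (64 barcodes) was led by TCF21, APOE, DCN, ISLR and MGP, with stromal markers at 0.542% of UMIs against 0.0126%. Of its barcodes 62.5% were marked as somatic, against 9.20% in cluster 4 and no barcode of clusters 0, 1 and 2. Germ-cell RNA was present in all: CETN1 stood at 1569 CPM in cluster 4 and 1465 in cluster 5, against 1810 to 2124 CPM in clusters 0 to 2.

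Markers of other cell types were otherwise low in the members. The medians over member barcodes were 0 for the Sertoli, Leydig, myoid, stromal, endothelial, macrophage, T or NK and spermatogonia lists. Summed shares were 0.00154% for Sertoli and 0.00208% for Leydig cells, against 0.00104% and 0.00228% in the lower-S group. Endothelial markers took 0.00179% against 0.00221%. Stromal and myoid markers were higher in the members, at 0.0126% and 0.00462% against 0.00362% and 0.00223%. Without the somatic-marked members, stromal markers took 0.00446% and myoid markers 0.00287%. Markers of early spermatocytes took 0.127% of the median member, those of late spermatocytes 0.983%, of round spermatids 0.262% and of elongating spermatids 0.194%. Against the lower-S group, 3 of 12 early spermatocyte, 4 of 11 elongating spermatid and 2 of 5 spermatogonia markers were called higher, 1 of 4 myoid and 5 of 9 stromal ones, against 13.9% of all tested genes, and 0 of 2 Sertoli, 3 Leydig, 2 endothelial and 2 T or NK ones; 0 of the myoid and stromal calls were left without the somatic-marked members. No macrophage marker had enough UMIs. The 4 lists from early spermatocytes to elongating spermatids were thus present in the median member, and the spermatogonia list was not. Late spermatocyte markers lay between the 1.06% of the lower-S and the 0.785% of the higher-S group.

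Immediate-early and dissociation stress genes held no call in either comparison among 15 tested and took 0.0520% of UMIs in the members, 0.0398% in the lower-S and 0.0444% in the higher-S group. In cluster 4 they took 0.525%, and in the somatic-marked barcodes 0.737%. HSPA8, a chaperone, had 45, 96.7 and 109 CPM over the 3 groups.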

How the data were processed

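The authors deposited raw UMI counts, which PISA 0.12 wrote, per the file headers. Cell Ranger 2.1.1 is listed in the submitters' processing notes with no role. No source used here names an aligner or build. The testis table had 32159 features. Of 16366 locus identifiers 706 took a symbol from RefSeq (EquAss-T2T_v2, used for names and the X check), PRM2 among them. The lowest testis barcode had 1816 UMIs. No sequence is printed.

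UMIs were summed per group. Ratios have exact conditional binomial intervals, shares Clopper-Pearson ones, and list medians add 0.5 counts. Per the barcode names, 370 members were merged from more than 1 bead, and names show no barcode sequence, so sharing between libraries was not counted. Doublet scores came from 2 simulated doublets per barcode, and no barcode was removed. The members were clustered on counts thinned to 1800 UMIs (2000 variable genes, 30 components, 15 neighbours, Leiden resolution 0.5). Thinning and this resolution were chosen after clusters on full counts were seen to split by depth. Clustering used leidenalg 0.10.2, igraph 0.11.9 and scikit-learn 1.9.0, other steps scipy 1.17.1, numpy 2.4.6, pandas 2.3.3 and matplotlib 3.10.9 under Python 3.11.15. The ratio calls were also run on simulated counts. These held counting error only, so they check the calling step and not the calls made here.

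The members and lists were chosen with earlier results of these data known. Named genes were, per comparison and direction, the 10 symbols with the interval bound most distant from 1, up to 4 members of each list with the most UMIs, every called member of lists with up to 8 calls, the given markers, the 8 rule genes and the 10 leading genes of each cluster. A leading gene of cluster 3 is not reported here.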

Additional observations from a re-analysis of the deposited data

How the results depend on the processing

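The 7 main values, the number of members, 4 counts of called genes and 2 shares of UMIs, were recomputed under 15 alternatives, 2 of them added after seeing the data. With S from 0.05%, 239 genes were lower than in the lower-S group and 190 higher than in the higher-S group, and X-linked and division genes took 0.358% and 0.594% of UMIs. With S under 0.10% the shares were 0.306% and 0.661%, and 1080 genes were higher and 54 lower than in the lower-S group. Members with at least 3 S UMIs numbered 1664, with 250 genes lower than in the lower-S group, 257 higher than in the higher-S group and shares of 0.335% and 0.617%. With at least 3000 UMIs the shares were 0.323% and 0.633%. Thinned to 1800 UMIs, which leaves fewer counts per gene, 539 and 12 genes were higher and lower than in the lower-S group, 183 and 987 than in the higher-S group, and division genes took 0.623%. Without the top doublet scores X-linked genes took 0.333%, without merged barcodes 105 genes were lower than in the lower-S group, and without somatic-marked members X-linked genes took 0.321%. By the mean of shares per barcode, called by the point ratio, 300 genes were lower than in the lower-S group and 1139 higher than in the higher-S group. Without testis clusters rich in somatic markers (496 barcodes, added later), the shares were 0.314% and 0.634%, and the ratio of DCN to the lower-S group turned to 0.971. With P taken without PRM2 (added later) there were 2695 members. Apart from the alternatives' own construction, the causes were not tested. Of 308 ratios of named genes, 140 were called, and a change of direction was scored for these 140 only. Among them, DCN was the only one to change direction under these alternatives, and thinning lost the most calls, 52. No paired analysis was possible because all groups are barcodes of the same 1 library. Depth limits S itself, since a barcode at the lowest depth of 1816 UMIs enters the range with 1 UMI of the S genes.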
